A study of Mus musculus with 8 samples.

Results

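The regions described here are distal stretches of open chromatin that gave strong ATAC-seq signal in 2 wild-type mouse melanoma lines and weak signal in 2 STAT3 knockout lines. ATAC-seq uses the Tn5 transposase, which inserts sequencing adapters into accessible DNA, so that a region with many counts is an open one. Members were chosen by level. Counts per region were divided by the column total of the library and multiplied by 1000000 to give CPM. A member lies on an autosome, more than 1 kb from either end of any protein-coding gene, has at least 4 CPM in the lowest of the 4 wild-type libraries, and has in that library at least 3 times the CPM of the highest of the 4 knockout libraries. There were 1458 such regions among 148664 in all (0.981%) and among 126838 distal autosomal regions (1.15%). Because the choice used the wild-type and knockout levels themselves, every difference between the genotypes at members is given as a description, without a test.

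The study profiled 4 lines, each with 2 replicate libraries made from 50000 cells per reaction with fragments over 1200 bp removed. Lines 112 and 113 were STAT3 knockouts (written Stat3∆ in the labels) and lines 119 and 73 were their wild-type controls (written Stat3fl). Each line was a pool grown from a single-cell suspension of the lymph nodes of mice that carried cutaneous melanoma, with onset at 25 to 30 weeks. Any further allele that all of these mice shared, and what drove the deletion, were not given in the sources used here. The line names also carry a p number, which is 18 (112), 44 (113), 14 (119) and 68 (73) and is not explained. Nothing states that the replicates were separate cultures, so tests between lines measure only the spread between these libraries, which may be technical.

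Distal open regions include enhancers, which bind transcription factors and act on promoters over a distance, often from inside an intron of the same or another gene. Their accessibility differs between cell types and cell states far more than that of promoters does. STAT3 is a transcription factor that cytokine receptors of the interleukin 6 family activate through JAK kinases, and in melanocytic tumours it has been studied beside MITF, which drives pigment genes, and beside regulators of the invasive, neural-crest-like state.

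Total counts ran from 2697546 to 7464336 per library, and knockout line 112 replicate 2 was the shallowest. The strongest region at an end of Stat3 (chr11:100939208-100939818) had 31.1 to 34.8 CPM in the knockout libraries and 18.8 to 34.8 CPM in the wild-type libraries. That range overlaps, and the region does not check the labels, since which part of Stat3 was deleted was not given. Regions at the ends of Ddx3y, Eif2s3y and Uty, genes of the Y chromosome, had 0 counts in all 4 knockout libraries and 8.31 to 17.7 CPM in the wild-type ones, so this difference follows the same split of the lines as the genotype and cannot be told apart from it. All 10 genes of a melanocyte marker list had a region at a gene end, with summed levels of 227 to 350 CPM in knockout and 122 to 137 CPM in wild-type libraries, although Mitf and Pmel were highest in line 73 (34.1 to 36.5 and 66.9 to 67.8 CPM). The sums hide differences between the wild-type lines. Sox10 had 16.6 and 19.7 CPM (line 119) and 2.29 and 3.30 (line 73), and Pax3 34.0 and 29.8 (line 119) and 5.27 and 6.08 (line 73). Mlana, Tyr, Tyrp1 and Dct had 5.09 CPM or less in every wild-type library and 5.93 CPM or more in every knockout one. Fibroblast markers (6 of 6 genes with a region) summed to 38.0 to 51.8 CPM in knockout libraries, 32.3 and 36.8 (line 119), and 79.0 and 76.0 (line 73). Line 73 stood apart, with 29.8 and 28.4 CPM at Col1a2 against 0.536 and 0.697 in line 119, while Pdgfra had 10.01 to 20.8 CPM in knockout and 1.92 or less in wild type. Leukocyte markers (5 of 8, with none at Ptprc, Csf1r or Itgax) summed to 31.4 to 59.3 and 30.5 to 45.8 CPM. Endothelial markers (1 of 4) stayed at 7.77 CPM or less and keratinocyte markers (2 of 3) at 11.5 CPM or less in every library, and no gene with a region was at 0 in all of them. The part of the marker and Y differences in the levels of members was not tested.

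Of the 1458 members, 18 (1.23%) overlap a promoter window of RefSeq, which runs from 250 bases before to 50 bases after a start in build GRCm38.p6. The share was 2.27% for all distal autosomal regions and 11.7% for 10972 distal regions that were strong in all 4 lines. In 15 of the 18 the start itself lies inside the member. These starts are internal starts of protein-coding genes or starts of long noncoding RNAs. The sequences below belong to 8 of the 18, picked after their levels and matches were seen, because their levels are described next. Each is the stretch before the start that lies inside the member, read 5′ to 3′ on the strand of the gene, with capitals for every match to a motif searched on both strands. Of the 17 members with such a stretch 7 held a match, and 5 of these 7 are shown.
Rcan1: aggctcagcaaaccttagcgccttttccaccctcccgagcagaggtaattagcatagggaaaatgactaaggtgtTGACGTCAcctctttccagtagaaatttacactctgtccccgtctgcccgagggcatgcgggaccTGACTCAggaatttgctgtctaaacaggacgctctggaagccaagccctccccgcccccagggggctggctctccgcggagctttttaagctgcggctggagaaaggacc
Dclk1: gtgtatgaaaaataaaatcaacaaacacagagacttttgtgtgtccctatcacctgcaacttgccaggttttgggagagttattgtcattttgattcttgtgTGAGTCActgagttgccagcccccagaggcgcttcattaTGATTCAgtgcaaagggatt
Mannr: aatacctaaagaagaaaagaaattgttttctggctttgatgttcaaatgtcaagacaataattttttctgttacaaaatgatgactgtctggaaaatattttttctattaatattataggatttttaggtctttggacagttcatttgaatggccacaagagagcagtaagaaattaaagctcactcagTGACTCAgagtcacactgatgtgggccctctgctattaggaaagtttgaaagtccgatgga
Wincr1: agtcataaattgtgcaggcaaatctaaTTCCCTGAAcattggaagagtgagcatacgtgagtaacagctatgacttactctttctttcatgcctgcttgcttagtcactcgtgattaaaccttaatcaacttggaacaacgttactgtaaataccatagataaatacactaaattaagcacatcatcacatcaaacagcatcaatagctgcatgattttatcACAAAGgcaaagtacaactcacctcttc
Pfkfb4: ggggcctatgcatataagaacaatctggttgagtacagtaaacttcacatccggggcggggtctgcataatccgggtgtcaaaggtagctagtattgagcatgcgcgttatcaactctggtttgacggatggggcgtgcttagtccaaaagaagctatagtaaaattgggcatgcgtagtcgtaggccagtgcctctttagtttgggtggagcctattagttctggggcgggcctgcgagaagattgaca
Cdc14b: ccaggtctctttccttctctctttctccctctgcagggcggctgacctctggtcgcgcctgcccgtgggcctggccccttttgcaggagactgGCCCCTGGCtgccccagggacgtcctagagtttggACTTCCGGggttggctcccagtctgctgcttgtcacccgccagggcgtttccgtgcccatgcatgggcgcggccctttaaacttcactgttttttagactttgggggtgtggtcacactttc
Myadm: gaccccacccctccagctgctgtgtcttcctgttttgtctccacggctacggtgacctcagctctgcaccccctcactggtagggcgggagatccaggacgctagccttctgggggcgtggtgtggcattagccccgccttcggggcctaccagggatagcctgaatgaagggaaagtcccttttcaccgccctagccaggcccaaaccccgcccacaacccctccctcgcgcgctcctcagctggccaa
5430435K18Rik: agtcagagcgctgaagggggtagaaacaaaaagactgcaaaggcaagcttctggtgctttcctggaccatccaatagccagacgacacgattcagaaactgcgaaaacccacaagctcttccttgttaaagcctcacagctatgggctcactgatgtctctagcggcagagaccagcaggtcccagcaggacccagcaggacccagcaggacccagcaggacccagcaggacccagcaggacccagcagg

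The stretches lie at chr16:92400079-92400328 on the minus strand (Rcan1), chr3:55461567-55461727 on the plus strand (Dclk1), chr3:29890767-29891016 on the plus strand (Mannr), chr4:89050057-89050306 on the plus strand (Wincr1), chr9:108991652-108991901 on the plus strand (Pfkfb4), chr13:64248539-64248788 on the minus strand (Cdc14b), chr7:3290305-3290554 on the plus strand (Myadm) and chr5:151252373-151252622 on the plus strand (the noncoding RNA 5430435K18Rik). AP-1, written TGANTCA, matched in the stretches of Rcan1, Mannr and, at 2 places, Dclk1. The other capitals mark CRE in Rcan1, TFAP2 and then ETS in Cdc14b, and STAT and then SOX in Wincr1. Over the full windows of 300 bases, 6 of the 18 (33.3%) held TGANTCA, against 7.81% of 32851 windows in the reference. The STAT motif TTCNNNGAA matched 1 of 18 (5.56%), that of Wincr1, against 8.30% of all windows. ETS, written CCGGAAGT, matched 3 of 18 (16.7%) against 3.89%, and 1 of the 18 held a C/EBP motif (TTGCNNCAA, TTGCNCAA or TTGCNNAAT) against 6.65%. None of the 18 held CACGTG (7.15% of all windows) or CATGTG (14.2%), the E-boxes that MITF can bind. TEAD (GGAATG, 14.7% of all windows), RUNX (TGTGGTT, 5.27%) and the palindromic NFI motif (0.0365%) matched 0 of 18. SOX (ACAAAG) matched 2 against 18.7%, and TFAP2 (GCCNNNGGC) and CRE (TGACGTCA) matched 1 each against 16.6% and 1.79%. Median GC content was 52.3% in the 18 windows and 52.7% in all. A match is only a run of letters, the 18 windows are few, and the other members were not searched. The reference windows include those at gene ends, which members leave out, and matches in windows over other distal regions were not counted apart. Whether the shares are particular to members was therefore not tested.

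Members at internal starts could be read against the first start of the same gene. Here and below, a number in parentheses after a pair of values is the line they belong to, with replicate 1 first. Rcan1 encodes an inhibitor of the phosphatase calcineurin. Its internal-start member (chr16:92399445-92400470) had 4.01 and 5.93 CPM (112), 3.98 and 1.80 (113), 21.2 and 21.3 (119), and 28.8 and 25.9 (73). The region at its first start (chr16:92465931-92466586) had 29.3 and 25.6 CPM (112), 38.4 and 35.3 (113), 20.6 and 20.9 (119), and 29.8 and 32.2 (73). The rule fixes the gap between the genotypes at the internal start. At the first start, which the rule leaves out as a gene end, the ranges of the genotypes overlapped and line 113 was the highest.

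Cdc14b, a dual-specificity phosphatase gene, was read in the same way. Its member (chr13:64248431-64249198) had 1.80 to 4.08 CPM in the knockout and 16.7 to 29.4 CPM in the wild-type libraries, whereas its first start had 22.3 to 25.0 and 22.8 to 35.5 CPM. At Dclk1, a doublecortin-like kinase gene that also makes a short protein from a downstream promoter, the member (chr3:55461567-55462125) had 1.25 and 1.85 CPM (112), 1.39 and 3.59 (113), 15.5 and 17.8 (119), and 20.8 and 15.7 (73). The region over the first start of Dclk1 had 17.8 and 13.0 CPM (112) and 27.4 to 37.3 CPM in the other 3 lines, so there line 112 alone was low.

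Myadm, a gene of a myeloid-associated membrane protein, has 3 listed starts. Its first had 3.78 to 5.93 CPM in the knockout, 6.30 and 5.05 (119), and 16.3 and 12.9 (73). The start in the member (chr7:3290072-3290710), which lies 1034 bp from the gene end, had 2.78 to 4.26 CPM in the knockout and 24.6 to 27.5 CPM in the wild-type libraries. The next start had 1.59 to 6.67 and 17.95 to 32.4 CPM and missed the ratio limit. Pfkfb4, which encodes an enzyme that sets the level of the glycolytic activator fructose 2,6-bisphosphate, had the highest levels of the 18 (chr9:108991287-108992214), with 5.26 and 9.27 CPM (112), 4.18 and 4.72 (113), 38.2 and 36.3 (119), and 41.4 and 48.7 (73). The 11 members at starts of noncoding RNAs had lowest wild-type values of 6.28 to 27.0 CPM (median 13.2), beside 7.10 to 36.3 CPM (median 21.2) for the 7 at protein-coding genes. The highest of the 11, at 5430435K18Rik inside Stard13, had 6.01 and 5.56 CPM (112), 1.59 and 2.92 (113), 35.0 and 35.9 (119), and 27.0 and 32.2 (73). The member at Mannr, beside Mecom, had 1.35 to 2.595 CPM in the knockout and 12.6 to 15.4 CPM in the wild type, and that at Wincr1 0.795 to 1.48 and 6.45 to 11.5 CPM.

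**Figure D1:**
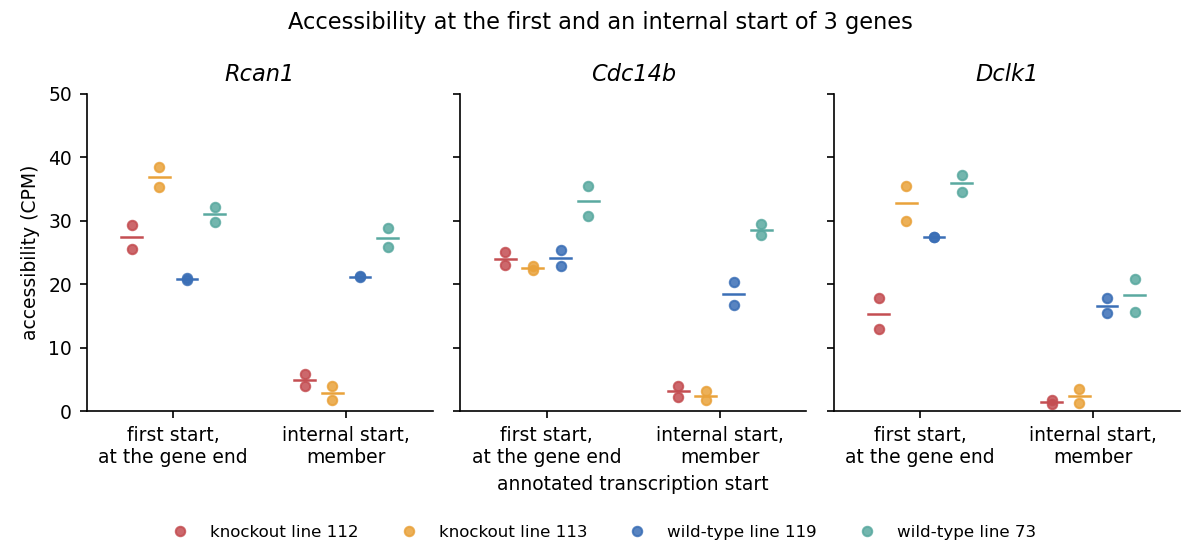
Accessibility in CPM (vertical axis) at the region of the first start and at the member on an internal start of Rcan1, Cdc14b and Dclk1. Points are libraries and bars are means of the 2 libraries of a line, and the knockout libraries lie at 5.93 CPM or less at the internal starts while they reach 12.97 CPM or more at the first starts. The rule that chose the members fixes the gap between the genotypes at the internal starts and leaves out the first starts.

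Over all members the median of the mean wild-type level was 14.2 CPM and that of the mean knockout level 1.77 CPM. By line, the median member had 2.11 CPM (112), 1.37 CPM (113), 13.1 CPM (119) and 14.5 CPM (73). Members took 2.14% to 2.52% of all counts in the wild-type libraries and 0.228% to 0.387% in the knockout ones. The log2 ratio of wild type to knockout means, with 0.5 CPM added to each, had a median of 2.65 (range 1.74 to 4.18), and over all distal autosomal regions it was 0.06. The lowest wild-type library reached 10 CPM in 828 members (56.8%), 20 CPM in 194, 30 CPM in 39 and 40 CPM in 10. By the rule no wild-type library of a member overlaps a knockout one, which held for 10.4% of all 148664 regions.

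"Open only in wild type" is therefore a matter of degree. A median member had 6 to 8 counts in a knockout library and 59 to 101 in a wild-type one. All 4 knockout libraries were at 3 counts or fewer in 34 members, and 1 member had 0 counts in all 4. With knockout values below 3 counts raised to 3 counts, the lowest wild-type library was at least 5 times the highest knockout library in 291 members (19.96%) and at least 10 times in 5. The highest knockout value came from line 112 replicate 2 in 708 members (48.6%) and from line 112 replicate 1 in 442, so the shallowest library most often set the limit. Without line 112 replicate 2 the rule would give 2602 regions.

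The deposited peak lists, which were called per library, followed the levels between the genotypes. Between the knockout lines they did not, since line 112 had the higher median level at members (2.11 against 1.37 CPM) but fewer peaks on them. A peak lay on the member in all 4 wild-type libraries for 1435 members (98.4%), and 1298 (89.0%) had that and no knockout peak, a pattern that 7.08% of all distal autosomal regions showed. At least 1 knockout library had a peak on 137 members (9.40%), and 0 members had a peak in all 4. Line 112 had a peak on 31 and 1 members in its replicates (2.13% and 0.0686%) and line 113 on 61 and 107 (4.18% and 7.34%). Over all distal autosomal regions these shares were 19.7% and 7.56% (112) and 28.7% and 28.8% (113), so the knockout libraries also differed in how many peaks they had at all. The authors' fold over background of the member peaks had a median of 9.16 to 10.7 in the wild-type lists, at the 81.9 to 84.4 percentile of each list. Where line 112 replicate 1 and line 113 had a peak on a member, the median fold was 4.56 to 5.10, below the middle of their own lists (28.8 percentile or lower).

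To see how far the levels repeat between libraries of the same lines, the rule was applied to the replicate 1 libraries alone. It chose 3695 regions, and in the replicate 2 libraries, which that choice did not use, 3587 of them (97.1%) had both wild-type libraries above both knockout libraries, against 17.4% of all distal autosomal regions. The full limits were met again by 1687 (45.7%), and the median log2 ratio went from 2.48 in the choosing libraries to 2.06 in the others. Chosen on replicate 2, 2446 of 2467 regions (99.1%) kept wild type above knockout in replicate 1 (21.6% of distal regions did), with medians of 2.40 and 2.43. The check repeats the lines, not the genotype.

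The floor of a member is the CPM of its lowest wild-type library. The member with the highest floor lay 16827 bp from E2f7, which encodes an atypical E2F that represses cell cycle genes (chr10:110804211-110805424, between genes). It had 11.3 and 8.53 CPM (112), 7.16 and 9.89 (113), 49.8 and 47.9 (119), and 52.7 and 50.2 (73). The 4 wild-type values lay close together, and 3 knockout libraries had a peak there despite their lower levels. Its 12 distal neighbours within 100 kb had a median log2 ratio of -0.16, so the surroundings did not share its ratio.

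Inside Il34, the gene of a ligand of the CSF1 receptor, a member (chr8:110793351-110794436) had 8.01 and 10.4 CPM (112), 4.97 and 5.17 (113), 44.5 and 49.3 (119), and 65.0 and 68.4 (73). Line 73 was the higher, with a log2 ratio of line 119 to line 73 of -0.69 ± 0.16 (SE, n = 2 libraries per line, edgeR quasi-likelihood test, adjusted p = 0.000244). A member 78322 bp from Cd93, which encodes a surface glycoprotein of endothelial and myeloid cells, was the second in floor (chr2:148521857-148522582). It had 2.75 and 5.56 CPM (112), 2.98 and 6.07 (113), 46.8 and 48.5 (119), and 64.8 and 73.0 (73). Line 73 exceeded line 119 there as well, with a log2 ratio of -0.71 ± 0.17 (edgeR, adjusted p = 0.00031). Both calls were lost without either replicate of line 119 (edgeR, adjusted p up to 0.137 at Il34 and 0.0985 at Cd93).

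Beside Spred2, a Sprouty-related inhibitor of Ras and MAP kinase signalling, a member at 88841 bp (chr11:19834619-19835601) had 6.76 and 11.1 CPM (112), 2.78 and 4.04 (113), 40.9 and 40.6 (119), and 46.2 and 45.1 (73). Here the wild-type lines did not pass the test (edgeR, adjusted p = 0.0835). The knockout lines differed, with line 112 the higher and a log2 ratio of line 113 to line 112 of -1.02 ± 0.34 (edgeR, adjusted p = 0.0195). That call was lost without line 112 replicate 2, without line 113 replicate 1 and with DESeq2. A member 24963 bp from Tgfbi, the gene of an adhesive matrix protein induced by TGF-β (chr13:56664322-56665329), had 11.0 and 10.01 CPM (112), 5.57 and 9.66 (113), 45.0 and 50.2 (119), and 42.1 and 40.05 (73). A second member at Tgfbi, 7904 bp away from the gene (chr13:56601047-56601682), had 2.02 to 7.78 CPM in the knockout and 27.0 to 34.2 CPM in the wild-type libraries.

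The other 5 of the 10 members with the highest floors were inside Celf4 (an RNA-binding protein gene), Mon2 (endosome to Golgi traffic) and Map3k4 (a kinase upstream of p38 and JNK), and beside Adgrl3 (a latrophilin adhesion receptor) and Atp6v1c1 (a subunit of the vacuolar proton pump). Their knockout values ran from 3.18 to 13.3 CPM and their wild-type values from 40.1 to 63.4 CPM. Of these 5, the Atp6v1c1 member differed between the wild-type lines (40.1 and 40.6 CPM (119), 63.4 and 61.6 (73), edgeR adjusted p = 5.00e-05), and the other 4 did not pass the test.

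**Figure D2:**
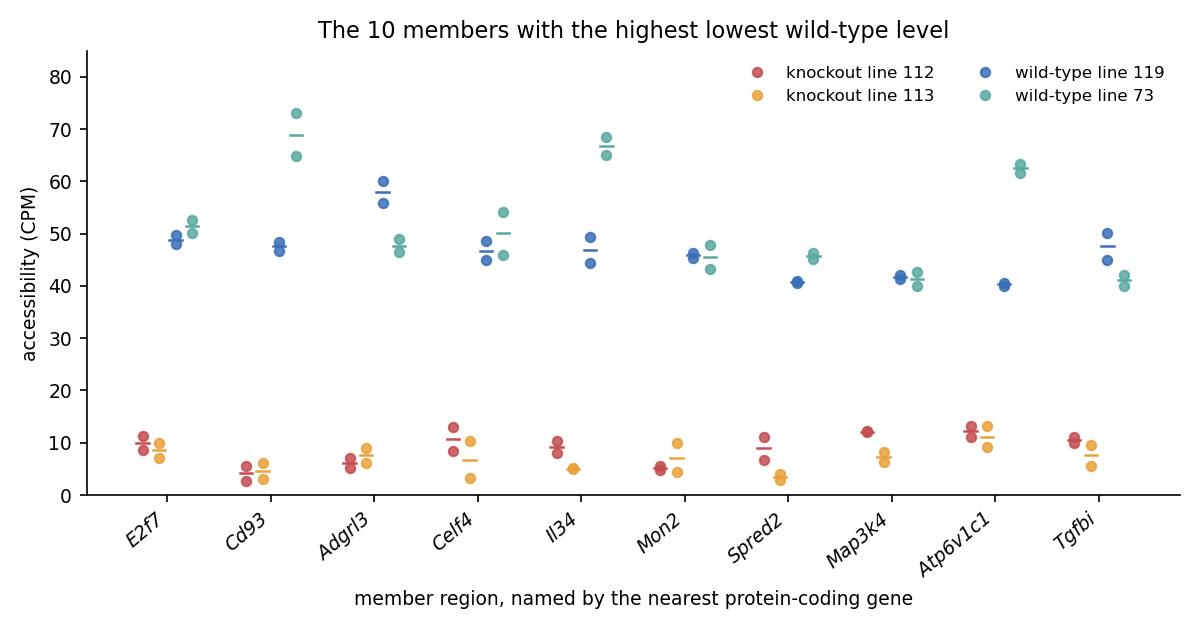
Accessibility in CPM (vertical axis) of the 10 members with the highest lowest wild-type level, named by the nearest protein-coding gene. Points are libraries and bars are means of the 2 libraries of a line; every knockout library is at 13.3 CPM or less and every wild-type library at 40.05 CPM or more.

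The largest ratios of the lowest wild-type to the highest knockout library belonged to weaker regions. A member 76865 bp from Naa11, an N-terminal acetyltransferase gene (chr5:97304774-97305344), had 4 and 3 counts (112) and 4 and 4 (113), or 0.795 to 1.11 CPM. In the wild type it had 17.95 and 14.6 CPM (119) and 19.5 and 22.6 (73), and the ratio was 13.2. A member 311169 bp from Bod1l, a gene for protection of replication forks (chr5:42155524-42156634), had 0.751 to 2.25 CPM in the knockout and 25.8 to 30.4 CPM in the wild type, a ratio of 11.5.

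A member in the tyrosine kinase gene Fer (chr17:63948803-63949351) followed, with 0.674 to 1.502 CPM in the knockout, 24.1 and 24.9 (119), and 19.5 and 17.0 (73). Members near the olfactory receptor gene Olfr432 (11.1), near the cadherin gene Cdh18 (10.1) and in Uhrf1bp1l (9.99) closed the 6 largest ratios. All 6 had 10 counts or fewer in every knockout library and 0 knockout peaks.

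Near the limits the members were less clear. The 3 just inside the CPM limit (near Pde4d, Fndc3b and Pla2g4a) had a lowest wild-type value of 4.01 CPM, from 23 counts, and knockout values of at most 1.123, 1.19 and 0.795 CPM. The 3 just outside it (near Alk, Slc22a22 and Arrdc3) had 3.89 CPM, from 17 counts. Just inside the ratio limit, at 3.001 to 3.004, stood members near Tbx15 (20.9 against 6.97 CPM), Cmbl (15.8 against 5.26) and Fmo9 (14.3 against 4.76), and just outside it were regions near Dtna and Slit3 (each 7.78 against 2.595 CPM). In all, 163 regions passed the ratio limit but not the CPM limit, and 20800 passed the CPM limit but not the ratio limit.

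The rule treats both wild-type lines alike, so differences between them could be tested, with the caution that it sets a floor in both. With edgeR's quasi-likelihood test on 134068 regions, 78 members (5.35%) were higher in line 119 and 496 (34.0%) in line 73 at an adjusted p under 0.05. Among all regions tested, 29.6% were higher in line 119 and 30.7% in line 73. The log2 ratio of line 119 to line 73 had a median of -0.34 over members and of -0.09 over all regions, and 86.4% of members lay within 2-fold, against 46.9% of all regions. The floor keeps regions that are low in 1 wild-type line out of the members but not out of all regions. The shares of the 2 sets are therefore unlike, and the closer agreement at members is at least in part set by the rule. The split depends on scaling. With total counts in place of TMM factors, which moved the median of all regions to 0.09 and that of members to -0.16, 132 members were higher in line 119 and 354 were higher in line 73. Leaving out 1 library gave 33 to 135 members higher in line 119, the lowest without line 73 replicate 1 and the highest without line 112 replicate 2, and 174 to 591 higher in line 73, the lowest without line 119 replicate 2 (194 without its replicate 1). It was 47 higher in line 119 without line 73 replicate 2.

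**Figure D3:**
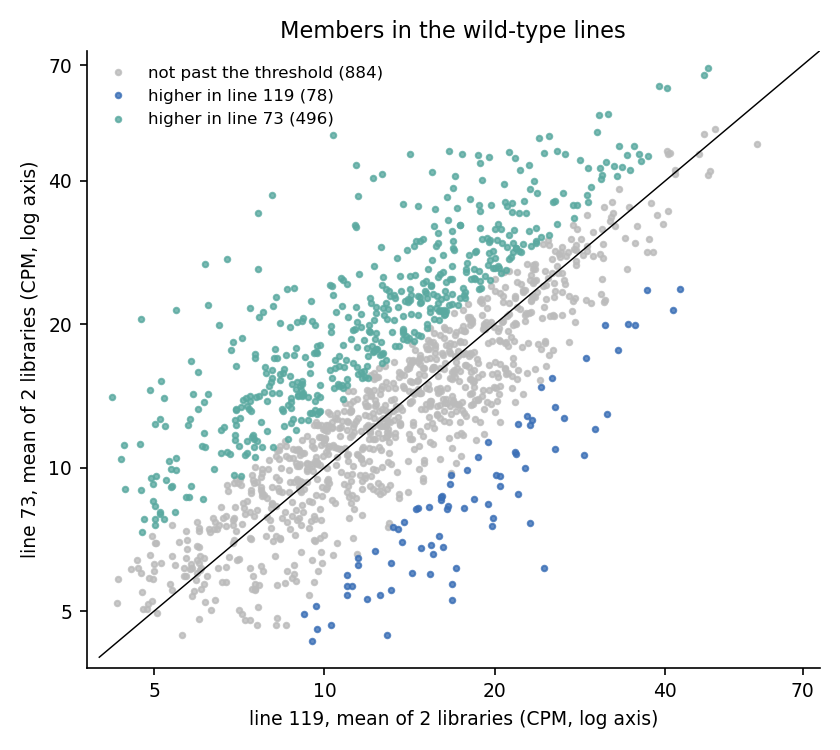
Mean CPM of the 2 libraries of line 119 (horizontal) against that of line 73 (vertical) for the 1458 members, on log axes with the line of equality. Members higher in line 119 by the edgeR test (78) and in line 73 (496) lie on either side of the 884 that did not pass the threshold.

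The member that differed most towards line 73 lies in Senp1, which encodes a protease that removes SUMO from proteins (chr15:98049020-98049759). It had 11.8 and 8.89 CPM (119) and 49.9 and 49.7 (73), beside 0.501 to 2.70 in the knockout. The log2 ratio of line 119 to line 73 was -2.43 ± 0.22 (edgeR, adjusted p = 2.03e-13). The member 56453 bp from Ptgs2, the gene of the prostaglandin-forming enzyme cyclooxygenase 2 (chr1:150042883-150043578), had 9.38 and 6.80 CPM (119) and 39.8 and 35.0 (73), a log2 ratio of -2.37 ± 0.24 (edgeR, adjusted p = 5.40e-12). The third lies in Tnik, a kinase gene of the Wnt pathway (chr3:28485592-28486116), with 7.23 and 8.02 CPM (119) and 34.6 and 34.0 (73).

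Towards line 119 the differences were smaller. A member in Qrfpr, a neuropeptide receptor gene (chr3:36189104-36189664), had 24.8 and 24.1 CPM (119) and 5.72 and 6.59 (73), and a log2 ratio of 1.81 ± 0.27 (edgeR, adjusted p = 1.75e-07). Members near Hnf4g, a nuclear receptor gene, and near Fstl5, a follistatin-like gene, were higher there with log2 ratios of 1.49 ± 0.28 and 1.42 ± 0.26. All 3 lie on chromosome 3. Under each of 13 other settings these 6 members kept their direction and passed the threshold.

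Between the knockout lines the counts were small and the rule sets a ceiling. Line 113 was higher in 22 members (1.51%, against 16.5% of all regions tested) and line 112 in 69 (4.73%, against 8.95%) by the same test. The log2 ratio of line 113 to line 112 had a median of -0.28 over members and -0.08 over all regions, and with total counts, where these medians were -0.60 and -0.41, 5 and 155 members passed. Leaving out 1 library gave 9 to 19 and 14 to 59 members. The count for line 113 was 9 and 10 without its replicates 1 and 2, 11 without line 112 replicate 1, and 14 without either replicate of line 119. For line 112 it was 45 without its own replicate 1 and 14 without line 113 replicate 1.

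Members at the extremes of that comparison had hardly any counts in the lower line. In Adamts16, a metalloprotease gene (chr13:70788938-70789477), line 112 had 5 and 4 counts and line 113 had 0 and 0 (edgeR, adjusted p = 0.00644), and a member in Hgf, the gene of hepatocyte growth factor, had 2 and 3 against 0 and 0. A member 1585 bp from Fhit (chr14:9547899-9548507) had 6 and 6 counts (112), 1 and 0 (113), and 22.1 to 26.4 CPM in the wild type. In the other direction, a member in Ralyl had 0 and 0 counts (112) and 5 and 3 (113), one 1376127 bp from Efnb2 had 0 and 0 against 2 and 5, and one in Dclk1 (chr3:55307488-55308014) had 0 and 4 against 9 and 13. Of these 6, each lost the call in 1 to 4 of the 13 other settings, mostly where a replicate of line 112 or line 113 was left out, and the Adamts16 member in 1, without line 113 replicate 1 (edgeR, adjusted p = 0.0665).

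Members were spread widely but not evenly. By chromosome, the share of distal regions that were members ran from 0.248% on chromosome 6 (21 of 8455) to 1.98% on chromosome 3 (162 of 8172), with 1.85% on chromosome 13, 1.78% on chromosome 10 and 0.531% on chromosome 19. The level of the other distal regions varied alongside. Their median log2 ratio of wild type to knockout was -0.50 on chromosome 6, 0.32 on chromosome 13, 0.20 on chromosome 3, 0.17 on chromosome 10 and -0.17 on chromosome 19. On chromosome 6 line 112 stood 0.59 above the mean of the lines and the other 3 lines lay at -0.54 to -0.49. Over the other autosomes the same measure ran from -0.17 to 0.18 (112), -0.45 to -0.08 (113), -0.26 to 0.08 (119) and -0.59 to -0.08 (73). The mirror set of distal regions high only in the knockout held 254 of the 8455 distal regions of chromosome 6, beside 1968 of 126838 over all autosomes. The part of these chromosome-wide shifts in the members was not tested.

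**Figure D4:**
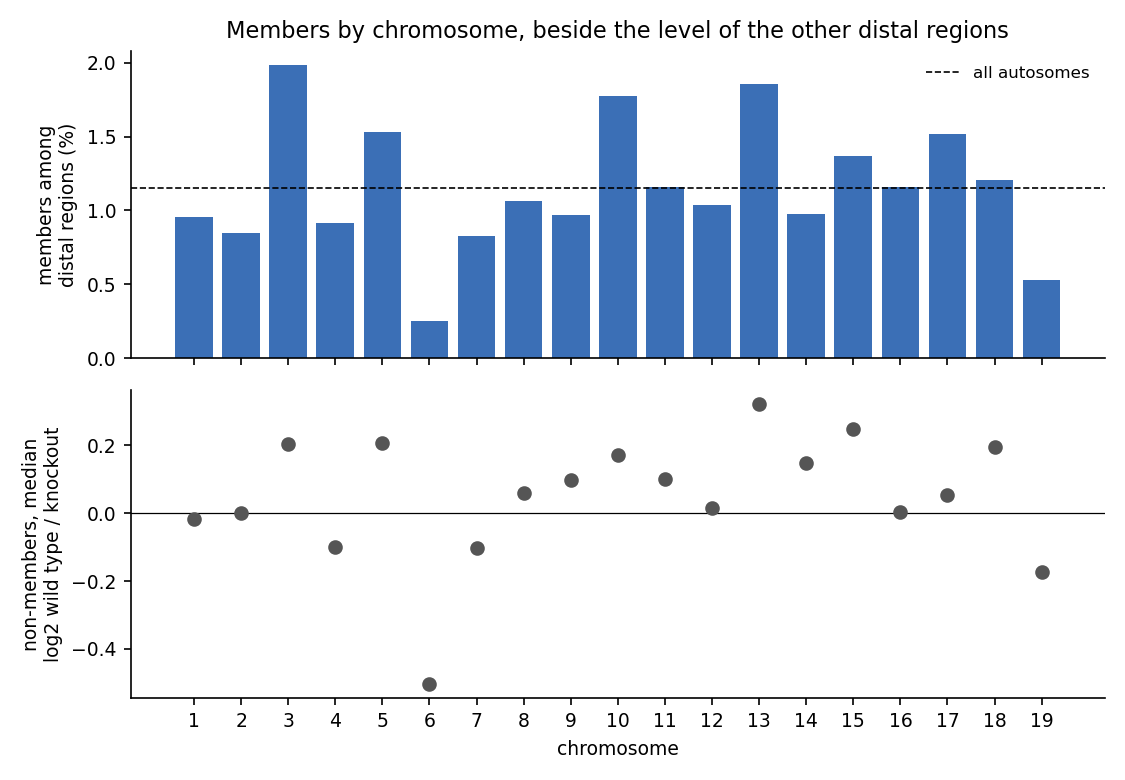
Members as a percentage of the distal regions of each autosome (upper bars, dashed line 1.15% over all) and the median log2 ratio of wild type to knockout over the distal regions that are not members (lower points). Chromosome 6 is lowest in both, and chromosomes 3 and 13 are above the overall share with medians above 0.

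Relative to genes, members lay farther out than other distal regions. Their median distance to a gene end was 47111.5 bp against 30914.5 bp for all distal autosomal regions, 31.4% against 22.6% were over 100 kb away, and 16.4% against 23.8% within 10 kb. Inside a protein-coding gene lay 694 members (47.6%, against 52.0%). Widths were alike, with medians of 577 and 568 bp. Among the distal regions strong in all lines, the median distance was 14683.5 bp and 59.6% lay inside a gene, and for the 1968 regions high only in the knockout these values were 36274 bp and 56.2%.

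Another member lay within 50 kb of 319 members (21.9%), beside 29.5% in the knockout-only set and 69.6% in the shared set. These sets differ in size, so the shares are not compared further. There were 1139 members on their own and 145 runs of 2 or more with gaps of up to 50 kb: 122 of 2 members, 18 of 3, 4 of 4 and 1 of 5. Regions around members leaned the same way. The distal regions within 100 kb that were not members (1452 members had at least 1) had a median log2 ratio whose own median over members was 0.42 (quartiles 0.04 to 0.83), against 0.06 for all distal regions. It exceeded 1 around 264 members and was below 0 around 338.

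The run of 5 lies among chemokine genes of chromosome 11 (chr11:82006716-82074312), across the ends of Ccl2 and Ccl7 and past an end of Ccl11. The products of these genes attract monocytes and eosinophils. The summed level of its 5 members was 12.0 and 21.5 CPM (112), 11.3 and 11.2 (113), 90.3 and 96.6 (119), and 107 and 129 (73). By the rule every wild-type sum is at least 3 times every knockout sum. Line 112 replicate 2 was the highest of the knockout libraries. The member of the 5 with the highest floor (chr11:82006716-82007926), 27651 bp from Ccl2, had 3.58 to 5.56 CPM in the knockout and 22.4 to 49.4 CPM in the wild type. All 14 other regions in the span were higher in the wild type, with a median log2 ratio of 1.93 (0.24 to 2.85). The region at the end of Ccl2 itself (chr11:82035199-82035780), which is no member because of its position, met the same level limits with 1.39 to 4.45 CPM in the knockout and 19.7 to 34.0 CPM in the wild type.

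**Figure D5:**
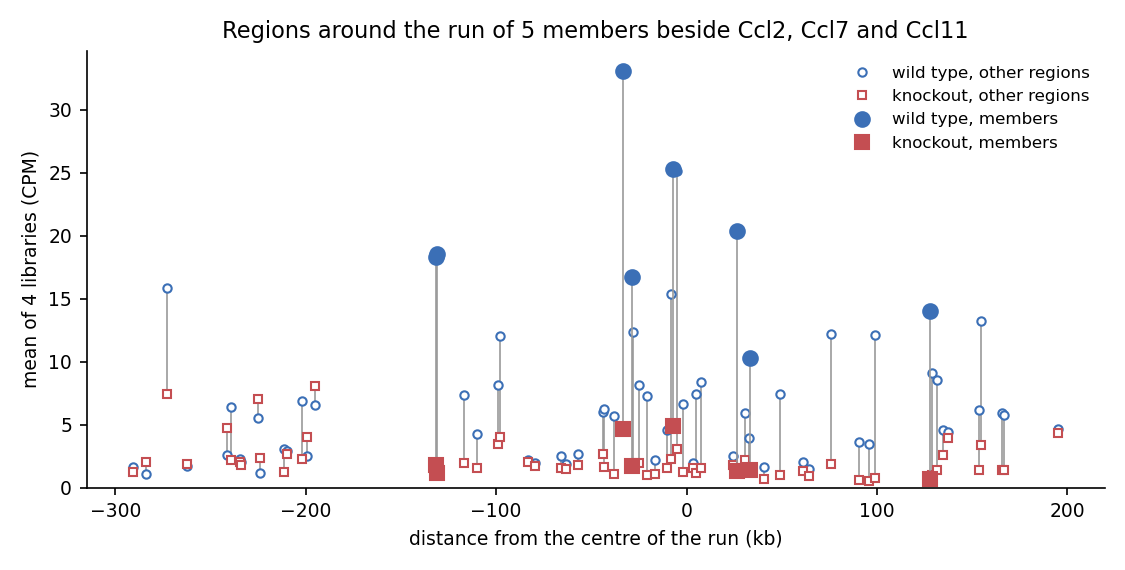
Mean CPM of the 4 wild-type libraries (blue circles) and the 4 knockout libraries (red squares) for each region around the run of 5 members, by distance from the centre of the run in kb. Filled symbols are members, grey lines join the means of 1 region, and the members of the run stand among other regions that are also higher in the wild type.

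A run of 4 in the space beside Dapk1, the gene of a kinase that promotes cell death (chr13:60427625-60454643), had 0 other regions in its span. Its summed level was 4.76 and 10.4 CPM (112), 5.17 and 6.07 (113), 67.7 and 62.9 (119), and 90.7 and 99.6 (73). Beside Mctp2, the gene of a membrane protein with C2 domains, a run of 4 (chr7:72501251-72589858) had 6.07 to 12.5 CPM in the knockout, 68.3 and 71.6 (119), and 59.3 and 51.7 (73), so here line 119 was the higher wild-type line. Runs of 4 near Zfp608 (3.38 to 9.64 against 45.8 to 55.4 CPM) and Klf6, a zinc-finger transcription factor gene (2.19 to 6.01 against 29.3 to 44.4 CPM), completed the set. In these last 2 spans 2 of 2 and 8 of 9 other regions were higher in the wild type.

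By nearest gene, 1408 members lay within 500 kb of a protein-coding gene end and fell to 1097 genes, of which 64 had 3 or more. Mctp2 had the most, with 7 of its 65 distal regions, and their lowest wild-type values ran from 6.87 to 16.5 CPM. Mecom, the gene of the transcription factor EVI1, had 6 of 68, the member at Mannr among them. Elmo1, which encodes a partner of DOCK proteins in Rac activation, had 5 of 58, and Alk, a receptor tyrosine kinase gene, 5 of 45, all inside the gene in both cases. The Elmo1 members had a mean of 23.3 CPM in the wild type and 3.40 in the knockout, and the Alk members 16.0 and 2.51. Another 10 genes had 4 each, with mean wild-type levels of 9.09 to 20.1 CPM. They were Dapk1, Ppm1l (a phosphatase gene), Sugct, Mast4 (a kinase gene), Zfp608, Efnb2 (the gene of ephrin B2), Atg10 (an autophagy gene), Fndc3b, Ppargc1a (a coactivator of mitochondrial genes) and Klf6.

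At the ends of these genes the genotypes were close in the median, but not at every gene. A region lay at an end of 890 of the 1097 genes, and its median log2 ratio of wild type to knockout was 0.00 (quartiles -0.24 to 0.48), against -0.13 (quartiles -0.36 to 0.12) over 14103 genes with such a region. It was above 0 for 447 of the 890 (50.2%), against 35.0% of all. Every wild-type library was above every knockout library at 103 of them (11.6%), against 4.6% of all 14103. Expression was not measured, and the nearest gene need not be the one a region acts on.

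Lists of genes that bear on melanoma and on STAT3 held 60 members within 500 kb, or 1.58% of their 3788 distal regions, beside 1.14% of all distal regions that near to a gene. Within 50 kb they held 21 of 1906 (1.10%), beside 0.958%, so the lists stood close to the background there. The axon guidance and MAP kinase lists fell below it at the nearer window. Of the 60, 23 (38.3%) were higher in line 73 and 5 (8.33%) in line 119 in the edgeR test between the wild-type lines, near the 34.0% and 5.35% of all members. Among cytokine genes 6 of 204 distal regions (2.94%) were members, all within 50 kb (6 of 145, 4.14%), 3 nearest to Ccl2, 2 in Il34 and 1 near Il33. The Il33 member (chr19:29920310-29921091), 4022 bp from this gene of an alarmin of the interleukin 1 family, had 2.00 and 1.85 CPM (112), 0.199 and 0.225 (113), 6.16 and 6.28 (119), and 13.3 and 15.2 (73). The wild-type lines did not overlap each other there either.

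In the list of neural crest and invasive-state genes 7 of 272 distal regions (2.57%) were members, at Sox9 (2), Tgfbi (2), Sox2, Wnt5a and Zeb1. High only in the knockout were 0 of the 272, beside 1968 of all 126838 distal autosomal regions. Within 50 kb 2 of 125 (1.60%) remained, both at Tgfbi. Sox9 encodes a transcription factor of neural crest and cartilage. Its member with the higher floor (chr11:113000916-113001500), 213159 bp away, had 5.01 and 5.56 CPM (112), 1.19 and 2.25 (113), 24.1 and 25.6 (119), and 25.0 and 25.1 (73), so the wild-type libraries were nearly level. The member 80778 bp from Zeb1, an inducer of epithelial to mesenchymal transition, had 1.57 to 5.56 and 18.8 to 23.1 CPM.

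Pigment genes showed the opposite balance. Of 353 distal regions 3 (0.850%) were members and 40 were high only in the knockout, and within 50 kb 1 of 194 (0.515%) and 28. Over all 126838 distal autosomal regions these counts were 1458 and 1968. The 3 were nearest to Trpm1, the gene of a channel of melanocytes and retina (chr7:64276784-64277381), with 3.26 to 5.62 CPM in the knockout and 19.7 to 26.6 CPM in the wild type, to Pax3, a transcription factor gene of the melanocyte lineage, and to Mreg, a gene of melanosome transport. Around the Trpm1 member the 24 other distal regions within 100 kb had a median log2 ratio of -0.83, so it was high in the wild type where its surroundings were high in the knockout.

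Near genes of the STAT3 pathway itself lay 2 of 268 distal regions (0.746%), and the same 2 were 1.19% of 168 within 50 kb, which is near the background share. One was 40824 bp from Jak1, the kinase that phosphorylates STAT3 below cytokine receptors (chr4:101306106-101306647). It had 1.75 and 1.48 CPM (112), 1.59 and 1.80 (113), 17.95 and 13.6 (119), and 12.6 and 13.2 (73). The other was 16505 bp from Il6st, the gene of the shared receptor chain gp130 (chr13:112447037-112447565), with 1.123 to 1.75 CPM in the knockout and 6.62 to 9.62 CPM in the wild type. There were 0 members among 41 distal regions of C/EBP genes and 1 among 146 of AP-1 genes, a region 76347 bp from Maf with 0.994 to 2.22 and 7.32 to 15.2 CPM.

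Genes that restrain MAP kinase signalling had 8 of 316 (2.53%), with 3 members beside Spry2, 2 beside Spred2, and 1 each at Spred1, Dusp6 and Etv5. Only that at Etv5 lay within 50 kb (1 of 142, 0.704%). The member at Spry2 with the highest floor (chr14:105804461-105806169), 85778 bp from this Sprouty gene, had 2.02 to 4.82 CPM in the knockout and 23.8 to 26.8 CPM in the wild type. In the TGF-β and BMP list 8 of 395 (2.03%) were members, with 2 at Tgfbr2, the type II receptor of TGF-β, and 2 in Ltbp1, which holds latent TGF-β in the matrix, and within 50 kb 2 of 200 (1.00%). The Tgfbr2 members had 3.51 to 4.45 CPM and 1.35 to 3.51 CPM in the knockout, and 18.4 to 46.1 CPM and 20.7 to 26.1 CPM in the wild type.

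Axon guidance genes had the most members in number within 500 kb, 16 of 866 (1.85%), with 16 high only in the knockout (1968 of all 126838 distal autosomal regions). Within 50 kb they had 2 of 281 (0.712%), both at Slit2, and cytokine genes then had the most. Ephrin B2 (Efnb2) had 4, Slit2 had 3, and Slit3, Sema3a and Sema5a 2 each. The highest floor lies 193139 bp from Nrp1, a receptor of semaphorins and VEGF (chr8:128164868-128165452), and had 3.51 and 2.595 CPM (112), 2.58 and 3.59 (113), 23.2 and 25.1 (119), and 31.6 and 29.4 (73). Matrix and adhesion genes had 6 of 619 (0.969%), and 3 of 400 (0.750%) within 50 kb. One of these, 42223 bp from Cd44, the gene of the hyaluronan receptor (chr2:102943892-102944527), had 1.502 to 3.34 CPM in the knockout, 14.9 and 13.4 (119), and 46.0 and 45.1 (73). The highest floor of this list lay inside the collagen gene Col4a2 (chr8:11381782-11382865), 66422 bp from a gene end. That member had 3.58 to 6.67 CPM in the knockout, 23.8 and 27.0 (119), and 23.1 and 22.6 (73). Wnt genes had 4 of 336 (1.19%), among them a member 216258 bp from Dkk2, a Wnt antagonist gene (chr3:131868121-131869008), with 0.994 to 2.02 CPM in the knockout, 22.2 and 19.5 (119), and 36.6 and 35.5 (73).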

How the data were processed

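The authors deposited raw counts per region for all 8 libraries and a peak list per library with a score, the ratio of signal to background (fold) and −log10 p and q values. The smallest deposited −log10 q was 1.30, and scores were not used in a result. Bowtie2 2.2.4, Picard 1.118, MACS2 2.1.1.20160309 and the build mm10 appear in the submitters' processing notes, without a stated role. Whether duplicates were removed, positions shifted for Tn5, or reads or cuts counted is not given in the sources used here, so counts may include PCR duplicates and floors cover counting error only. The count table had 0 columns of other samples.

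Gene ends came from 21887 protein-coding genes of the RefSeq table of GRCm38.p6, which holds no exons. Of overlapping opposite-strand promoter windows, 1813 of 1813 pairs matched after reverse complement. A genome was not used here. Lines were compared with edgeR 4.0.16 in R 4.3.3 (filterByExpr, TMM, 1 mean per line, quasi-likelihood test, two-sided, Benjamini-Hochberg over 134068 regions, threshold 0.05). On simulated counts with 200 changed among 30000 regions, it recovered 26% of 2-fold and 97.5% of 4-fold changes, with 3 and 14 false calls. Between lines 119 and 73 far more was called, 29.6% and 30.7% of regions, than was changed in the simulation. The simulated recovery therefore does not carry over to the comparisons of the lines. A region that was not called may still differ. Standard errors are the log2 difference divided by the square root of F. Alternatives were other scalings and filters, DESeq2 1.42.0, a replicate block and leaving out each library. Peak overlap of 1 bp or more was found with bedtools 2.31.1, and tables Python 3.11.15 with pandas 2.3.3.

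Named members are the 10 with the highest lowest wild-type CPM, the 6 with the highest ratios, 3 on each side of each limit, the 3 with the largest called difference each way between lines of a genotype, and the one with the highest lowest wild-type CPM of each gene list, with the 10 genes (extended to all tied at 4 members) and 5 runs that hold most members. One region just outside a limit is not reported here. The other members named were chosen after their values were seen. Members and lists were chosen with earlier results of these data known, and promoter windows and motif counts after the files were seen.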

Additional observations from a re-analysis of the deposited data

Results flagged for a closer look

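In 4 of 98 sets of 4 libraries of 1 genotype, 1 library lay apart from the others (Dixon's test at the 95% level, which chance meets in about 1 set in 20). The member near Trpm1 had 3.26 CPM in line 112 replicate 1, while the other knockout libraries had 5.56 to 5.62 CPM. The member near Pla2g4a had 0.449 CPM in line 113 replicate 2, against 0.741 to 0.795. The summed level of the chemokine run was 21.5 CPM in line 112 replicate 2, against 11.2 to 12.0, and that of the run near Klf6 was 2.19 CPM in line 113 replicate 1, against 5.39 to 6.01.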

How the results depend on the processing

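The number of members was 1895 with TMM library sizes (1382 shared with the 1458), 310 with a ratio of at least 5, 3695 and 2467 with the replicate 1 or the replicate 2 libraries only, and 1513 to 2602 when 1 library was left out. Members higher in line 119, higher in line 73, higher in line 113 and higher in line 112 numbered 132, 354, 5 and 155 with total counts, and 36, 205, 7 and 24 with DESeq2's Wald test. Leaving out 1 library gave 33 to 135, 174 to 591, 9 to 19 and 14 to 59. A line left with 1 library was assumed to vary like the others. With a replicate block these counts were 74, 474, 21 and 69. Same-numbered libraries of different lines correlated at -0.037 to 0.005 in their deviations, so the numbers were not taken to pair them. Another member lay within 20 kb of 12.2% and within 100 kb of 31.1%, and the gene lists held 21 members within 50 kb. By list these fell from 16 to 2 (axon guidance), 8 to 1 (MAP kinase feedback), 8 to 2 (TGF-β and BMP), 7 to 2 (neural crest), 6 to 3 (matrix), 4 to 2 (Wnt), 3 to 1 (pigment) and 1 to 0 (AP-1), and the STAT3 pathway and cytokine lists held 2 and 6 at both distances. When a peak had to cover at least 50% of a member, the shares with a peak were 0.0686%, 0%, 0.617% and 1.10% in the knockout libraries (line 112, then 113) and 95.5%, 92.0%, 85.4% and 84.9% in the wild type (line 119, then 73). In each case above the cause was not tested, except that fewer libraries can only enlarge the set of members. The share of members inside genes and the numbers under the settings not listed stayed within the counting interval or 1.5 times. The planned motif and GC comparison over all members was not run, since no genome was used. A knockout value of a median member rests on 6 to 8 counts, which limits every ratio.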

Other observations

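The same level limits were met outside the distal autosomal regions by 53 of 17789 regions at autosomal gene ends (0.298%), 28 of 4013 on chromosome X (0.698%) and 4 of 24 on chromosome Y (16.7%). At gene ends the highest floors were at Susd1, Fam20a and Clcf1. Clcf1 encodes a cytokine of the interleukin 6 family, and its region (chr19:4213463-4214305) had 6.01 and 8.53 CPM (112), 6.16 and 6.07 (113), 34.7 and 35.0 (119), and 43.96 and 34.7 (73). Ereg, the gene of the EGF receptor ligand epiregulin, had 1.79 to 5.93 CPM in the knockout, 29.3 and 25.4 (119), and 55.2 and 54.5 (73). Cxcl1, a neutrophil chemokine gene, had 0.899 to 4.08 CPM, 14.1 and 14.1 CPM, and 34.1 and 35.5 CPM in the same order. Tbx18, a mesenchymal transcription factor gene, had 0.398 to 3.34 CPM in the knockout and 20.2 to 28.6 CPM in the wild type.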
